A study of Homo sapiens with 4 samples.

Results

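Integrin, laminin and collagen chain genes encode the receptors and the matrix by which an epithelial cell is held to its basement membrane. They were examined here in TE-1, an established line of esophageal squamous cell carcinoma (ESCC), after silencing of FOXM1, a forkhead transcription factor of proliferating cells. The chains were chosen by symbol among genes whose probe set carried exactly 1 symbol, with patterns for integrin alpha and beta chains, laminin alpha, beta and gamma chains and collagen alpha chains. This gave 68 genes (21 integrin, 9 laminin and 38 collagen chains) of the 14232 that the arrays measured in this way, and each of the 68 had a single probe set. A further 8 chain genes, among them LAMB3, COL7A1 and ITGA4, occurred only in probe sets shared with another symbol and are not analysed here.

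An integrin is a pair of an alpha and a beta chain that spans the membrane, binds matrix outside the cell and links it to the actin or keratin skeleton inside. Laminins are trimers of an alpha, a beta and a gamma chain, and together with the type IV collagen network they form the sheet of the basement membrane, while fibrillar collagens belong to the connective tissue beneath it. In squamous epithelium, the basal cells sit on this sheet through hemidesmosomes, which contain the integrin chains encoded by ITGA6 and ITGB4, and through focal adhesions, which contain the partners of ITGB1.

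Total RNA of 2 groups was hybridized to 4 arrays. TE-1-siFOXM1 cells had been transfected with siRNA against FOXM1 and TE-1-SCR cells with a scrambled siRNA (labelled siRNA SCR), both with Lipofectamine on consecutive days, with harvest a day after the last transfection. Each group had 2 replicates. The cells carried no other stated treatment or allele, all arrays came from this single line, and the sources used here do not say if the 2 replicates of a group were grown separately. All p-values therefore describe the scatter of these 4 arrays, part or all of which may be technical. Values are log2 expression values, and a fold change is the difference of the group means on that scale.

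FOXM1 itself stood at 8.28 and 8.06 in TE-1-siFOXM1 replicates 1 and 2 and at 10.55 and 9.75 in TE-1-SCR replicates 1 and 2, so that 25.3% of the control level was left. Both silenced arrays were below both controls (difference -1.98, 95% interval -2.75 to -1.21, adjusted p = 1 and unadjusted p = 0.00126 in limma). In bulk RNA of this kind, fewer cells of a type and less RNA per cell cannot be told apart. Of 10 listed markers of squamous epithelium, KRT5, KRT6A, KRT17 and TP63 were not measured under 1 symbol. The 6 measured ones were SFN, EPCAM, DSP, CDH1, PKP1 and KRT14, of which KRT14 was the lowest (7.70 to 8.15). All 6 reached the median level of all probe sets (7.58). None of 5 endothelial and none of 6 leukocyte markers did, and of 7 fibroblast markers only FBLN1 did. Probes differ between genes, so a level set beside that of other genes is a rough guide and no test of expression. The summed log2 level of each marker list ranged from 62.55 to 63.25 in TE-1-siFOXM1 and from 62.58 to 62.71 in TE-1-SCR arrays for squamous epithelium, from 41.95 to 43.26 and from 42.01 to 42.19 for fibroblasts, from 27.02 to 27.73 and from 27.05 to 27.29 for endothelium, and from 33.14 to 33.20 and from 33.01 to 33.81 for leukocytes. The median of the arrays ranged from 7.54 to 7.63.

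The 68 chain genes stood at nearly the same level in both groups. None differed by 1.5-fold or more in either direction after silencing, whereas 0.562% of all genes were higher and 0.45% were lower, 1.01% together, so a count of 0 among 68 genes was close to this background. The differences ran from -0.33 for LAMB2 to 0.21 for COL13A1 (log2), with a median of -0.04, beside a median of 0.003 over all genes. No chain gene passed an adjusted p of 0.05 in limma (Benjamini-Hochberg, adjusted across the whole array; the lowest was 1, and 0% of 22011 probe sets did), and none had an unadjusted p under 0.05, against 1.83% of all genes. For 49 of the 68 genes, the 95% interval of the difference lay within 1.5-fold in both directions, which was so for 60.9% of all genes. The intervals of the remaining 19 genes reached beyond 1.5-fold, and for these a change of 1.5-fold could not be told from none with 2 arrays against 2. The exact permutation test of a single gene has a smallest two-sided p of 0.333 in this design.

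**Figure D1:**
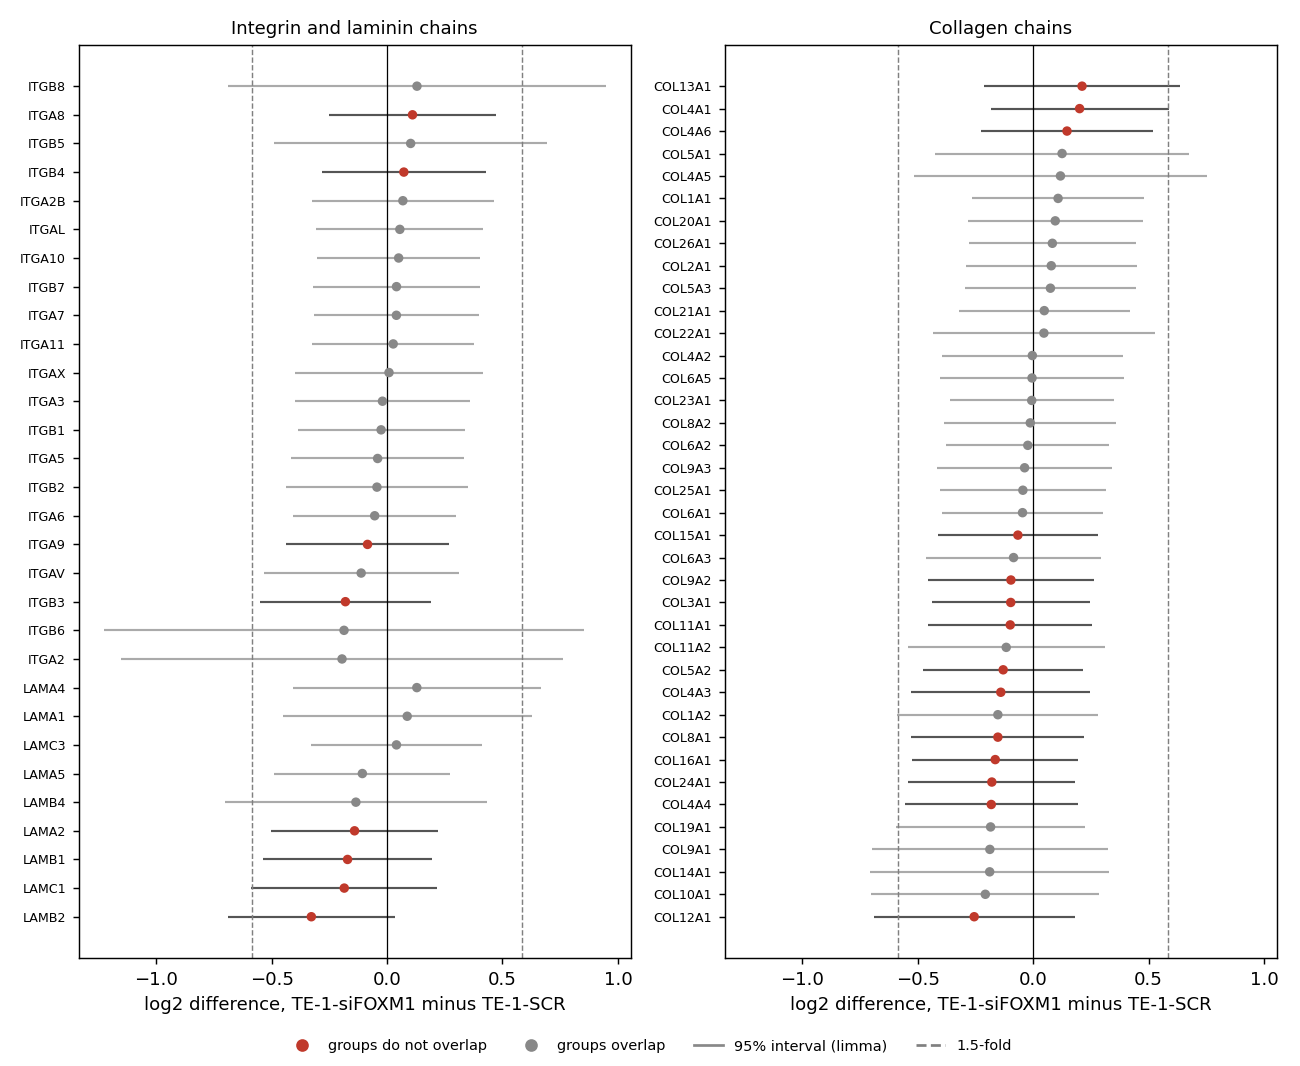
Log2 difference (TE-1-siFOXM1 minus TE-1-SCR, horizontal axis) for each of the 68 chain genes (points, 2 arrays in each group) with the 95% interval from limma (lines), and dashed lines at 1.5-fold; red points mark genes whose groups do not overlap. Every point lies between -0.33 and 0.21, and the widest intervals are those of ITGB6 and ITGA2.

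The groups did not overlap for 22 of the 68 genes (32.4%, against 27.3% of all genes). Of these, 17 were lower and 5 were higher in both TE-1-siFOXM1 arrays, beside 13.8% and 13.5% of all genes. The level was set beside the range of 7 genes of other organs, such as ALB and GFAP (3.84 to 7.31, log2). Such a range is a rough guide only, since probes differ between genes. On every array, 8 of the 22 separated genes exceeded that range, beside 36 of all 68 chain genes and 7749 of the 14232 genes. The single array with the highest value of the 4 was TE-1-SCR replicate 1 for 32 of the 68 genes (47.1%), as it was for 42% of all genes. For TE-1-siFOXM1 replicate 2 this share was 32.4% (17.8% of all genes) and for TE-1-siFOXM1 replicate 1 it was 7.35% (30.7%). For TE-1-SCR replicate 2 it was 13.2% (9.47%). Within the replicates numbered 1 the median difference of the chain genes was -0.08 (-0.03 over all genes), and within those numbered 2 it was 0.03 (0.03 over all genes). The part of single arrays in the count of 17 lower genes was not tested.

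Among integrins that bind laminin, ITGA3 and ITGA6 were well above the range of the organ-restricted genes and differed little between the groups. ITGA3, which with ITGB1 forms a laminin receptor of epithelial cells, had log2 values of 11.34 and 11.45 in TE-1-siFOXM1 (mean 11.40 ± 0.07, SD, n = 2) and 11.50 and 11.33 in TE-1-SCR arrays (11.42 ± 0.12, SD, n = 2). The TE-1-siFOXM1 values lay inside the range of the controls, and the difference was -0.02 with a 95% interval from -0.40 to 0.36. ITGA6, the alpha chain of the hemidesmosome, had values of 10.37 and 10.40 in TE-1-siFOXM1 and 10.39 and 10.49 in TE-1-SCR arrays, which overlapped (difference -0.05, interval -0.41 to 0.30). Its partner ITGB4, whose long cytoplasmic tail binds plectin, had values of 11.67 and 11.79 against 11.66 and 11.65. Both TE-1-siFOXM1 arrays were above both controls by this narrow margin, with a difference of 0.07 (interval -0.28 to 0.43), which was 0.01 without TE-1-siFOXM1 replicate 2. ITGA7, a laminin receptor of muscle, ranged from 6.79 to 6.91 over the 4 arrays.

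ITGB1, the most widely shared beta chain, had values of 11.04 and 11.11 in TE-1-siFOXM1 and 11.04 and 11.16 in TE-1-SCR arrays. The groups overlapped, and the difference was -0.03 with an interval from -0.39 to 0.34. Among chains that recognize the RGD motif of fibronectin and related ligands, ITGA5, the alpha chain of the fibronectin receptor, had values of 10.58 and 10.59 against 10.72 and 10.53 (difference -0.04, interval -0.42 to 0.33). ITGAV, which pairs with several beta chains, had values of 10.26 and 10.34 against 10.26 and 10.56 (difference -0.11, interval -0.54 to 0.31). Neither chain separated the groups.

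The receptors that varied most between arrays were ITGA2, ITGB6 and ITGB8, and their arrays differed more by replicate number than by siRNA. The same held for 37 of the 68 chain genes and for 8952 of all 14232 genes. ITGA2, the alpha chain of an epithelial collagen receptor, had values of 11.36 and 12.01 in TE-1-siFOXM1 replicates 1 and 2 and of 11.45 and 12.31 in TE-1-SCR replicates 1 and 2. ITGB6, an epithelial partner of ITGAV that activates TGF-beta, had values of 10.18 and 10.99 in TE-1-siFOXM1 and of 10.34 and 11.21 in TE-1-SCR replicates 1 and 2. In both groups the replicate numbered 2 was the higher. ITGB8, another partner of ITGAV with the same role, had values of 9.50 and 9.90 against 9.17 and 9.97. The mean of the replicates numbered 1 minus the mean of those numbered 2 was -0.75 for ITGA2, -0.84 for ITGB6 and -0.60 for ITGB8. These were the 3 chain genes of 68 whose replicate numbers were at least 1.5-fold apart, as were those of 3.31% of all genes. ITGB5, which binds vitronectin together with ITGAV, went the other way, with 11.02 and 10.53 against 10.83 and 10.51 and a difference of 0.40 between the numbers. The labels do not say what the replicate number stands for.

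Between the siRNAs, the differences of these receptors were -0.20 for ITGA2 (standard error 0.37), -0.19 for ITGB6 (standard error 0.40), 0.13 for ITGB8 (standard error 0.32) and 0.10 for ITGB5 (standard error 0.23), and none separated the groups. Taken by replicate number, first 1 and then 2, with a single array on each side, they were -0.08 and -0.31 for ITGA2, -0.16 and -0.22 for ITGB6, 0.33 and -0.07 for ITGB8 and 0.19 and 0.02 for ITGB5. The size of these values depended on single arrays. Without TE-1-SCR replicate 1 the differences were -0.63 for ITGA2 and -0.62 for ITGB6, and without TE-1-siFOXM1 replicate 2 the difference of ITGB6 was -0.59. These were the only chain genes to reach 1.5-fold in either direction when any 1 array was left out. The share of all genes at least 1.5-fold apart, 1.01% with all arrays, was then 1.51% without TE-1-SCR replicate 1 and 2.49% without TE-1-siFOXM1 replicate 2. Without TE-1-SCR replicate 2 the differences were 0.24 for ITGA2 and 0.25 for ITGB6.

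**Figure D2:**
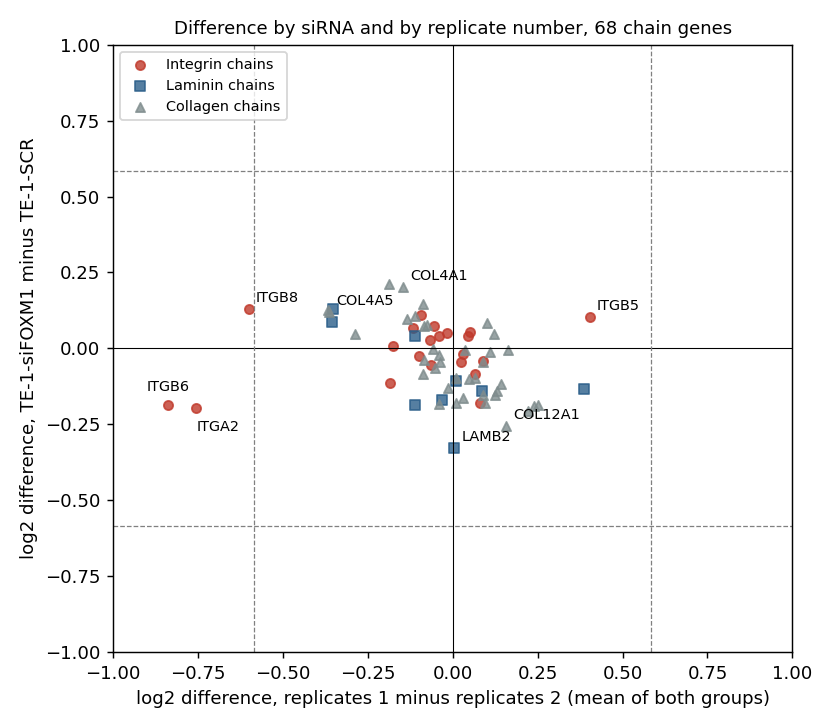
Log2 difference by siRNA (vertical axis, TE-1-siFOXM1 minus TE-1-SCR) against the log2 difference by replicate number (horizontal axis, replicates 1 minus replicates 2, averaged over both groups) for the 68 chain genes, with dashed lines at 1.5-fold. ITGA2, ITGB6 and ITGB8 lie beyond 1.5-fold on the horizontal axis (-0.75, -0.84 and -0.60), and no gene does on the vertical axis.

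The remaining integrin chains were near or within the range of the organ-restricted genes. The leukocyte chains ITGAL, ITGAX and ITGB7 lay between 6.02 and 7.26 on all arrays, and ITGB2, the beta partner of ITGAL and ITGAX, lay between 7.51 and 7.72. ITGB3, a chain of platelets and endothelium, had values of 5.15 and 5.16 against 5.42 and 5.25 and was lower in both TE-1-siFOXM1 arrays (difference -0.18, interval -0.55 to 0.19, and -0.10 without TE-1-SCR replicate 1). Over the 21 integrin chains, 11 differences were above 0 and 10 below (47.6% below, against 49% of all genes), with a median of 0.008. The groups did not overlap for 4 of them (19%, against 27.3% of all genes), 2 in each direction.

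**Figure D3:**
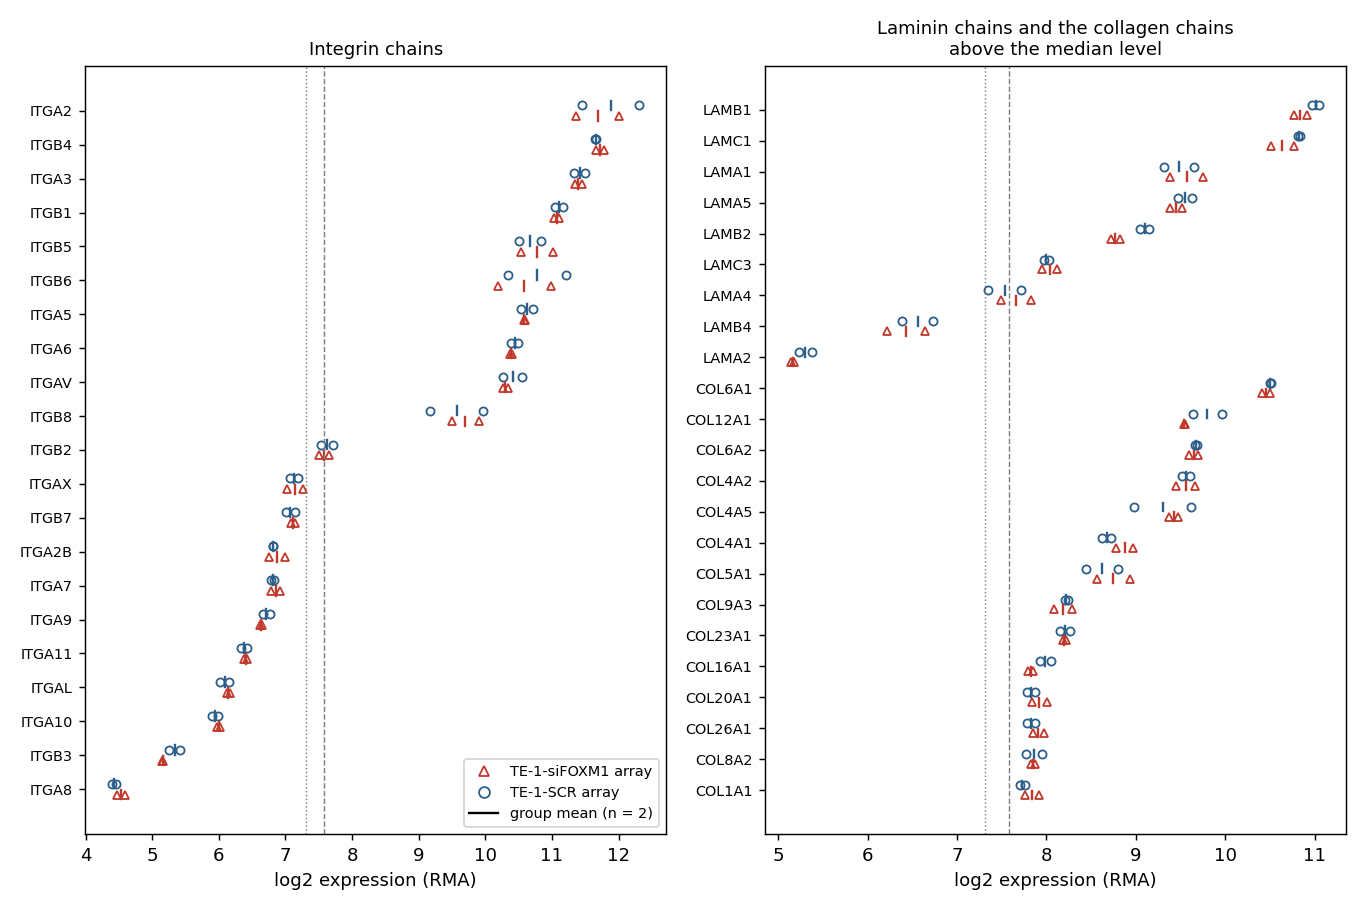
Log2 expression of all integrin and laminin chains and of the collagen chains at or above the median level, with 2 arrays in each group (triangles, TE-1-siFOXM1; circles, TE-1-SCR) and group means (short lines). The dashed line is the median of all probe sets (7.58) and the dotted line the highest value of the organ-restricted genes (7.31). Probes differ between genes, so levels are to be compared within a gene and the lines are a rough guide only. LAMB2 is the laminin chain with the widest distance between group means.

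Of the laminin chains, LAMB2 had the most negative difference among all 68 genes. It encodes a laminin beta chain that replaces the product of LAMB1 in some basement membranes. LAMB2 had values of 8.72 and 8.82 in TE-1-siFOXM1 (8.77 ± 0.07, SD, n = 2) and of 9.15 and 9.04 in TE-1-SCR arrays (9.10 ± 0.08, SD, n = 2). Both TE-1-siFOXM1 arrays were below both controls, by 1.26-fold on average. The difference was -0.33 with a 95% interval from -0.69 to 0.03 (unadjusted p = 0.067 and adjusted p = 1 in limma), and it was between -0.38 and -0.27 when any 1 array was left out.

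LAMB1 and LAMC1, the beta and gamma chains found in most laminins, had values in the same order. For LAMB1 these were 10.77 and 10.91 against 11.05 and 10.97, and for LAMC1 10.51 and 10.77 against 10.84 and 10.81. Neither gene overlapped between the groups, with differences of -0.17 (interval -0.54 to 0.20) and -0.19 (interval -0.59 to 0.22). Within the replicates numbered 1 the differences were -0.28 and -0.33, and within those numbered 2 they were -0.06 and -0.04.

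LAMA5, the alpha chain typical of adult epithelial basement membranes, had values of 9.38 and 9.51 against 9.63 and 9.47, which overlapped (difference -0.11, interval -0.49 to 0.27). LAMA1, known chiefly from the early embryo, had values of 9.38 and 9.75 against 9.31 and 9.65, again with overlap (difference 0.09). The alpha chain of vascular laminins, LAMA4, had values of 7.50 and 7.83 against 7.35 and 7.72 (difference 0.13, interval -0.41 to 0.66). Of the 9 laminin chains, 6 differences were below 0 (66.7%, against 49% of all genes), with a median of -0.14. The groups did not overlap for 4 of them (44.4%, against 27.3% of all genes), all of them lower (13.8% of all genes). The median was -0.20 within the replicates numbered 1 and -0.04 within those numbered 2. TE-1-SCR replicate 1 was the highest array for 6 of the 9 chains (66.7%, against 42% of all genes).

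Among the collagens, the type IV chains come as 3 gene pairs that lie head to head, each pair being transcribed outward from a common promoter region. In the RefSeq annotation of GRCh38.p14, the starts of COL4A1 and COL4A2 on chromosome 13 are 127 bases apart, those of COL4A4 and COL4A3 on chromosome 2 are 419 bases apart, and those of COL4A6 and COL4A5 on chromosome X are 380 bases apart for the nearer start of COL4A6. The sequences below are shown because each pair shares such a region while the arrays measure both of its genes. The first is the whole stretch between the starts of COL4A1 and COL4A2 (chr13:110307158-110307283, + strand, the strand of COL4A2), the next the 250 bases before the start of COL4A3 (chr2:227164374-227164623, + strand) and the last the 250 bases before the start of COL4A5 (chrX:108439588-108439837, + strand). Capitals mark a GC box (GGGCGG, searched on both strands), a short motif that binds SP1 and is held by 45% of all windows of 300 bases around gene starts in the same table.
COL4A1-COL4A2: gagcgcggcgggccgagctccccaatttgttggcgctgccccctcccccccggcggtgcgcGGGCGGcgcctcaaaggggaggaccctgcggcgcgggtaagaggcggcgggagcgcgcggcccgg
COL4A3: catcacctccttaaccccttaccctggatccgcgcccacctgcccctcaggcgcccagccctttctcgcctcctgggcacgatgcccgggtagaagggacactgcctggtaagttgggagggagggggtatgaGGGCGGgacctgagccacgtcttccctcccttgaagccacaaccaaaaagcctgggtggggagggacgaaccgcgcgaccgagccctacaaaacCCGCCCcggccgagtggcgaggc
COL4A5: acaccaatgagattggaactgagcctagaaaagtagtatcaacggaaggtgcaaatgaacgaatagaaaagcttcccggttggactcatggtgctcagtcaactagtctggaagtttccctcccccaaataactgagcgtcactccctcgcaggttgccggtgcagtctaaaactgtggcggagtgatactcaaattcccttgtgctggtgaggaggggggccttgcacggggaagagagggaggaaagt
The stretch between COL4A1 and COL4A2 holds 1 GC box, that of COL4A3 holds 2 and that of COL4A5 holds none. The COL4A3 and COL4A5 stretches show only 250 of the 419 and 380 bases between the starts of their pairs. A GC box lies 45 bases before a start of COL4A6, outside the stretch shown for COL4A5. The absence of the motif therefore applies to the COL4A5 stretch alone and not to the pair.

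COL4A1 and COL4A2 encode the chains of the type IV network that is common to nearly all basement membranes. COL4A1 had values of 8.78 and 8.97 in TE-1-siFOXM1 (8.88 ± 0.13, SD, n = 2) and of 8.62 and 8.72 in TE-1-SCR arrays (8.67 ± 0.07, SD, n = 2). It was higher in both TE-1-siFOXM1 arrays, with a difference of 0.20 (interval -0.18 to 0.59, adjusted p = 1 in limma), and of 0.11 to 0.30 when any 1 array was left out. COL4A2, its neighbour, had values of 9.45 and 9.66 against 9.61 and 9.51, which overlapped, and a difference of -0.003 (interval -0.39 to 0.39).

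COL4A3 and COL4A4, which with COL4A5 form the network of the kidney glomerulus, lay within the range of the organ-restricted genes. Their values were 5.93 and 5.89 against 6.16 and 5.94 for COL4A3 and 6.21 and 6.21 against 6.48 and 6.30 for COL4A4. Both genes were lower in both TE-1-siFOXM1 arrays, by -0.14 (interval -0.53 to 0.25) and -0.18 (interval -0.56 to 0.19), and TE-1-SCR replicate 1 was the highest array in each.

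COL4A5, a chain also found in the basement membrane of squamous epithelium, had values of 9.38 and 9.47 in TE-1-siFOXM1 and of 8.98 and 9.62 in TE-1-SCR arrays. The control values lay on both sides of the others, and the difference of 0.12 (interval -0.52 to 0.75) was -0.20 without TE-1-SCR replicate 1. COL4A6, its partner in that network, had values of 6.61 and 6.61 against 6.38 and 6.55, with no overlap and a difference of 0.15 (interval -0.22 to 0.52), which was 0.06 without TE-1-SCR replicate 1 and 0.23 without TE-1-SCR replicate 2.

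**Figure D4:**
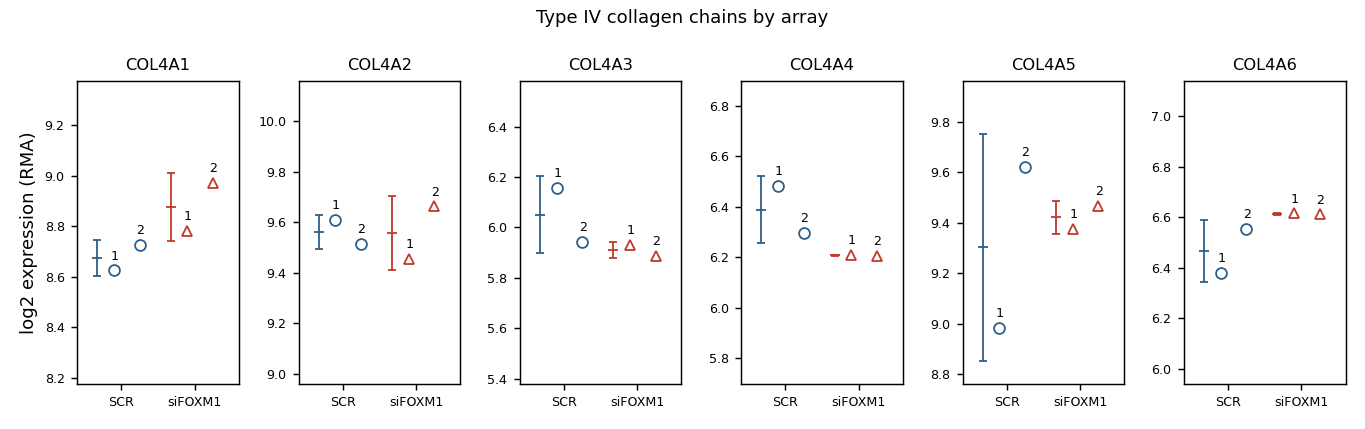
Log2 expression of the 6 type IV collagen chains in each array (circles, TE-1-SCR; triangles, TE-1-siFOXM1; the numeral is the replicate number), with the group mean and SD (n = 2) to the left of each group and axes that span the same log2 range in every panel. COL4A1 and COL4A6 are higher and COL4A3 and COL4A4 lower in both TE-1-siFOXM1 arrays, while COL4A2 and COL4A5 overlap.

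The most negative difference among collagens was that of COL12A1, a collagen that associates with the surface of fibrils. Its values were 9.54 and 9.55 in TE-1-siFOXM1 and 9.96 and 9.63 in TE-1-SCR arrays. The groups did not overlap, and the difference was -0.26 (interval -0.69 to 0.18, adjusted p = 1 in limma), but it was -0.09 without TE-1-SCR replicate 1. COL16A1, of the same class, had values of 7.80 and 7.85 against 8.05 and 7.93, again with no overlap (difference -0.16). COL14A1, a further member, had values of 5.23 and 5.22 against 5.65 and 5.18, and its difference of -0.19 was 0.05 without TE-1-SCR replicate 1. Likewise COL10A1, the collagen of hypertrophic cartilage, had values of 5.44 and 5.43 against 5.86 and 5.43, where a single control array carried the difference of -0.21. Without that array, TE-1-SCR replicate 1, it was 0.0085.

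Of 10 fibrillar collagens, which fibroblasts make in bulk, only COL5A1 and COL1A1 reached the median level. COL1A1 had values of 7.76 and 7.92 against 7.70 and 7.76, COL1A2 had 7.35 and 7.41 against 7.69 and 7.37, and COL3A1 had 6.53 and 6.53 against 6.64 and 6.62. COL3A1 was lower in both TE-1-siFOXM1 arrays by a small margin (difference -0.10, interval -0.44 to 0.24), and the other pair overlapped, with differences of 0.11 and -0.15. The last of these was 0.0063 without TE-1-SCR replicate 1. COL5A1, which starts the assembly of fibrils, had values of 8.56 and 8.93 against 8.44 and 8.80 (difference 0.13, interval -0.43 to 0.68).

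Of collagen VI, which forms beaded filaments near basement membranes, COL6A1 ranged from 10.41 to 10.51 and COL6A2 from 9.59 to 9.70 over the 4 arrays, with differences of -0.05 and -0.02 and intervals that stayed within 0.40 of 0. The largest positive difference among the 68 genes was that of COL13A1, a collagen anchored in the cell membrane, with 6.85 and 7.14 in TE-1-siFOXM1 and 6.74 and 6.82 in TE-1-SCR arrays. Both TE-1-siFOXM1 values were the higher, with a difference of 0.21 (interval -0.21 to 0.64, adjusted p = 1 in limma), at a level within the range of the organ-restricted genes. It was 0.36 without TE-1-siFOXM1 replicate 1 and 0.07 without TE-1-siFOXM1 replicate 2. Over the 38 collagen chains, 26 differences were below 0 (68.4%, against 49% of all genes) with a median of -0.05. The groups did not overlap for 14 of them (36.8%, against 27.3% of all genes), of which 11 were lower (13.8% of all genes). The median was -0.09 within the replicates numbered 1 and 0.04 within those numbered 2.

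FOXM1 binds forkhead sites weakly on its own and is brought to mitotic genes through the CHR element by the MuvB complex. Letters of both kinds were therefore searched, on both strands, in windows from 250 bases before to 50 bases after each start, of which 62 were found for 46 of the 68 genes. The forkhead core TAAACA was in 6 of the 62 windows (9.68%, against 12.3% of all 35116 windows), those of ITGA6, ITGB1, ITGB6, LAMB4, COL9A1 and COL13A1. The CHR letters TTTGAA were in 11 windows (17.7%, against 15.2%), among them those of ITGAV, ITGB5 and LAMB1. No match of one motif overlapped a match of another. The surroundings of the forkhead letters (capitals) in the 3 integrin windows are shown because these receptors were well above the organ-restricted range, and they lie at chr10:32935630-32935689 (- strand), chr2:172427169-172427228 (+ strand) and chr2:160200273-160200315 (- strand, ending at the base before the start) in GRCh38.p14. The letters begin 104 bases before a start of ITGB1, where they lie on the opposite strand and read TGTTTA. They begin 140 bases before a start of ITGA6 and 16 before a start of ITGB6. ITGB1 has more than 1 annotated start, and only 1 of its windows held these letters.
ITGB1: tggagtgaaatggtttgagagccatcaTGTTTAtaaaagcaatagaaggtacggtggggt
ITGA6: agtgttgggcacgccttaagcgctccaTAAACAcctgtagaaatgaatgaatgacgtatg
ITGB6: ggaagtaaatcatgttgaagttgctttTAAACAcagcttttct
The differences of these 3 genes, as given above, were -0.03, -0.05 and -0.19. A match of letters is a description of the window and not evidence of binding.

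The genes that act on or beside these chains also stayed under the 1.5-fold criterion. Of 19 measured basement membrane and other ligands of integrins, 11 measured receptors and linkers of the hemidesmosome and matrix, 28 of focal adhesions, 15 of collagen modification and export and 18 of procollagen processing and cross-linking, none was at least 1.5-fold apart and none passed an adjusted p of 0.05. Of all genes, 1.01% were at least 1.5-fold apart, and 0% of 22011 probe sets passed that adjusted p. The medians of these lists were -0.04, 0.03, -0.02, 0.02 and -0.03. The gene nearest to the criterion was LOX, the lysyl oxidase that cross-links collagen and elastin, with 7.33 and 7.67 in TE-1-siFOXM1 and 8.04 and 8.08 in TE-1-SCR arrays. It was lower in both TE-1-siFOXM1 arrays, by 1.48-fold (difference -0.56, interval -1.01 to -0.12, unadjusted p = 0.023 and adjusted p = 1 in limma). An unadjusted limma p under 0.05 was found for 1.83% of all genes. Within the replicates numbered 1 and 2 the difference of LOX was -0.72 and -0.41.

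RAP1B, a GTPase that activates integrins through talin, had values of 5.52 and 5.55 against 4.76 and 5.28. The difference was 0.52 (interval -0.04 to 1.07), or 0.76 and 0.27 within the replicates numbered 1 and 2. This level was below the median and within the range of the organ-restricted genes. Its close relative RAP1A had values of 10.25 and 10.04 against 10.41 and 10.24, with overlap. The difference of RAP1A was -0.18 (interval -0.59 to 0.23). CCN2, a matricellular ligand of integrins, had values of 9.09 and 10.08 against 9.70 and 10.45, with overlap and a difference of -0.49, and TGFBI, another ligand, had the largest positive difference of that list (0.14). Among the enzymes and carriers, P3H2, a prolyl hydroxylase of basement membrane collagen, had values of 10.24 and 10.62 against 10.81 and 10.62, with overlap. Its difference of -0.28 (interval -0.77 to 0.21) was -0.57 within the replicates numbered 1 and 0.0076 within those numbered 2. SEC23A, a coat protein of the vesicles that carry procollagen, had a difference of 0.24 with overlap (0.29 and 0.18 within the replicates numbered 1 and 2), and FURIN, a convertase that cleaves several integrin alpha chains, had one of 0.20 without overlap (0.18 and 0.22). Of the collagen receptors, DDR2 had a difference of -0.15 (-0.12 and -0.18). LAIR1 had values of 6.10 and 6.05 against 5.74 and 6.05, and its difference of 0.18 was 0.36 within the replicates numbered 1 and 0.00082 within those numbered 2.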

How the data were processed

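The arrays were normalized by the authors with robust multi-array average (RMA) in Affymetrix Expression Console, per the labels and the methods, and the deposited values are log2 expression, with 1 value for every probe set on each array. The submitters' processing notes name the build hg18 and no versions. The sources used here do not give the set of arrays that RMA was run on. RMA equalizes the distributions of arrays, so a shift common to all genes would not be seen. Precision is limited by there being 2 arrays in a group.

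Groups and replicate numbers came from the sample labels. Gene symbols were those of the platform annotation, and of 22011 probe sets the 14432 with 1 symbol, for 14232 genes, gave named genes (the probe set with the highest mean where there were several). All 68 symbols matched the RefSeq gene table. All probe sets were tested with limma (limma 3.58.1, R 4.3.3) on group alone, with 4.87 degrees of freedom, two-sided and with Benjamini-Hochberg adjustment over all of them. The intervals are 95% limma intervals and are not adjusted. The calculation was tested on simulated data. The 1.5-fold criterion is that of the study for these arrays. No low-value filter was applied, and 32 of the 68 genes had a mean that reached the median level of 7.58.

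The chain genes, their classes and the further gene lists were chosen with earlier results of these data known. Named were FOXM1, the 5 most positive and 5 most negative differences, 29 chains of epithelium and tumor stroma chosen for their role (of which those measured under 1 symbol are given), and the most positive and most negative difference of each further list. Other genes named were chosen after their values were seen. Alternatives concerned the normalization (median centring, or quantiles), the model (replicate number as a block, or limma with trend and robust options), the probe sets (bright ones only, or averaged per gene), the fold (from linear means, at 2-fold, or with separated groups) and the arrays (each left out in turn, the remaining one of its group being assumed to vary like the other group). Sequences are RefSeq promoter windows of GRCh38.p14, a build other than hg18, and were matched by symbol only.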

Additional observations from a re-analysis of the deposited data

How the results depend on the processing

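With all 4 arrays, no chain gene was at least 1.5-fold apart under any alternative of normalization, testing, fold and criterion that was run. Only median centring, quantile normalization and linear means could have raised this count. The model and probe set alternatives leave each difference as it was. The 2-fold and separated-group criteria are stricter than 1.5-fold alone. The alternative with bright probe sets only held 32 of the 68 genes. When 1 array was left out, the number at least 1.5-fold lower ranged from 0 to 2 (ITGB6 without TE-1-siFOXM1 replicate 2, ITGA2 and ITGB6 without TE-1-SCR replicate 1) and the number higher was 0. No chain gene passed an adjusted p of 0.05 under any alternative, and the median of the genes lay between -0.07 (without TE-1-siFOXM1 replicate 2) and 0.005 (without TE-1-siFOXM1 replicate 1). With 1 array left out, the 95% interval lay within 1.5-fold for 2 to 22 genes, against 49 with all arrays, since fewer arrays give wider intervals. FOXM1 and 13 of the 27 named chain genes kept their sign without each single array. The other 14 did not, and the cause was not tested. Their log2 differences without 1 array ranged from -0.42 to 0.0085 for COL10A1, -0.42 to 0.0459 for COL14A1, -0.31 to 0.0063 for COL1A2, -0.11 to 0.10 for COL4A2, -0.20 to 0.44 for COL4A5, -0.63 to 0.24 for ITGA2, -0.10 to 0.0623 for ITGA3, -0.13 to 0.0527 for ITGA5, -0.26 to 0.0331 for ITGAV, -0.0872 to 0.0356 for ITGB1, -0.14 to 0.35 for ITGB5, -0.62 to 0.25 for ITGB6, -0.27 to 0.53 for ITGB8 and -0.0555 to 0.31 for LAMA4.

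The replicate number as a block cannot change the differences, since each number has an array in each group. The count of 0 chain genes 1.5-fold apart and the median of -0.04 were therefore fixed beforehand. With the block, no chain gene passed an adjusted p of 0.05 in limma, and the interval lay within 1.5-fold for 61 genes. LAMB2 then had an unadjusted p of 0.0495 (adjusted p = 0.697 from limma). The deviations of arrays with the same number were correlated across genes (r = 0.34 over all probe sets and 0.72 over the chain genes, which are not independent), but with 2 pairs this does not establish a pairing.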
